A study of Mus musculus with 7 samples.

Results

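The genes described here carry a mouse symbol made of Fam and a number, a name given to families of related sequence before a function was known. All symbols in the count tables that consist of Fam, a number and at most 1 letter with a further number were taken, which gave 232 of 32531 symbols. Of these, 193 had enough reads to be tested, among 17375 tested genes in all. The samples come from ventricle-lining brain tissue of adult Dcdc2a-EGFP/Rpl10a mice (line ES2575). In this line ribosomes carry EGFP fused to the ribosomal protein Rpl10a in the cells where the Dcdc2a transgene is active, which the series gives as the ependymal cells. RNA bound to tagged ribosomes was pulled down with antibodies to EGFP (IP, 3 libraries numbered 1, 3 and 4), and total RNA of the tissue was sequenced beside it (Input, 4 libraries numbered 1 to 4). Both groups carry the transgene, and no mice without it are among the samples. The labels do not say whether a library came from 1 animal or from several, so the p-values measure the spread between these libraries, which may be technical. IP and Input also differ in the kind of RNA, ribosome-bound against total, and cell type and ribosome binding cannot be told apart in this comparison. In such bulk samples fewer cells of a type and less RNA per cell cannot be told apart either.

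Ependymal cells line the ventricles and beat motile cilia into the cerebrospinal fluid. A motile cilium is built on a basal body and holds a ring of doublet microtubules with dynein motors. Many of its proteins were found late, and a number of Fam genes were later renamed after a part of the cilium. Other Fam genes encode secreted proteins, Golgi kinases, regulators of small GTPases, RNA-binding proteins or adaptors of membrane traffic. RefSeq lists 79 of the 232 members under another name by now, and those names are given below where a member is first described.

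Counts assigned to genes ranged from 37203427 to 52175180 per library, which puts the level of 3 reads at 0.0575 to 0.0806 counts-per-million (CPM), a floor for counting error alone. IP 1 stood apart from the other IP libraries. Its log2 CPM values over all tested genes correlated at 0.82 with IP 3 and 0.85 with IP 4, and at 0.891 to 0.895 with the Inputs; genes are not independent replicates. Of 10 ependymal marker genes 9 were higher in IP, and their summed level was 212 CPM in IP 1, 2972 in IP 3 and 2441 in IP 4 against 27.6 to 51.9 in the Inputs. Of 7 markers of mural cells and fibroblasts 5 were higher as well, with 81.0, 1073 and 494 CPM against 32.1 to 73.6. Of 10 neuron markers 8 were near even and none was called, and of 9 oligodendrocyte markers 2 were lower. Of 9 astrocyte and 6 endothelial markers 1 each was higher, and none of 8 microglial and 7 choroid plexus markers was called. The part of vessel wall and meningeal cells in the results below was not tested.

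Of the 193 tested members 11 were higher and 8 lower in IP (edgeR's quasi-likelihood test, adjusted p under 0.05 over all genes). This is 5.70% and 4.15% of the members, against 3.64% and 2.16% of all tested genes. A further 56 members were near even, meaning that they were not called and that the 95% interval of their log2 fold lay within -1 to 1. They were 29.0% of the members, against 25.9% of all tested genes. The remaining 118 members, most of the tested ones, were unresolved, with intervals too wide to call them enriched, depleted or even. The median log2 fold of the members was -0.09, beside 0.06 over all tested genes. All 3 IP libraries lay above every Input in 18 members and below every Input in 28, where 9.55% and 10.4% of all tested genes did so.

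**Figure D1:**
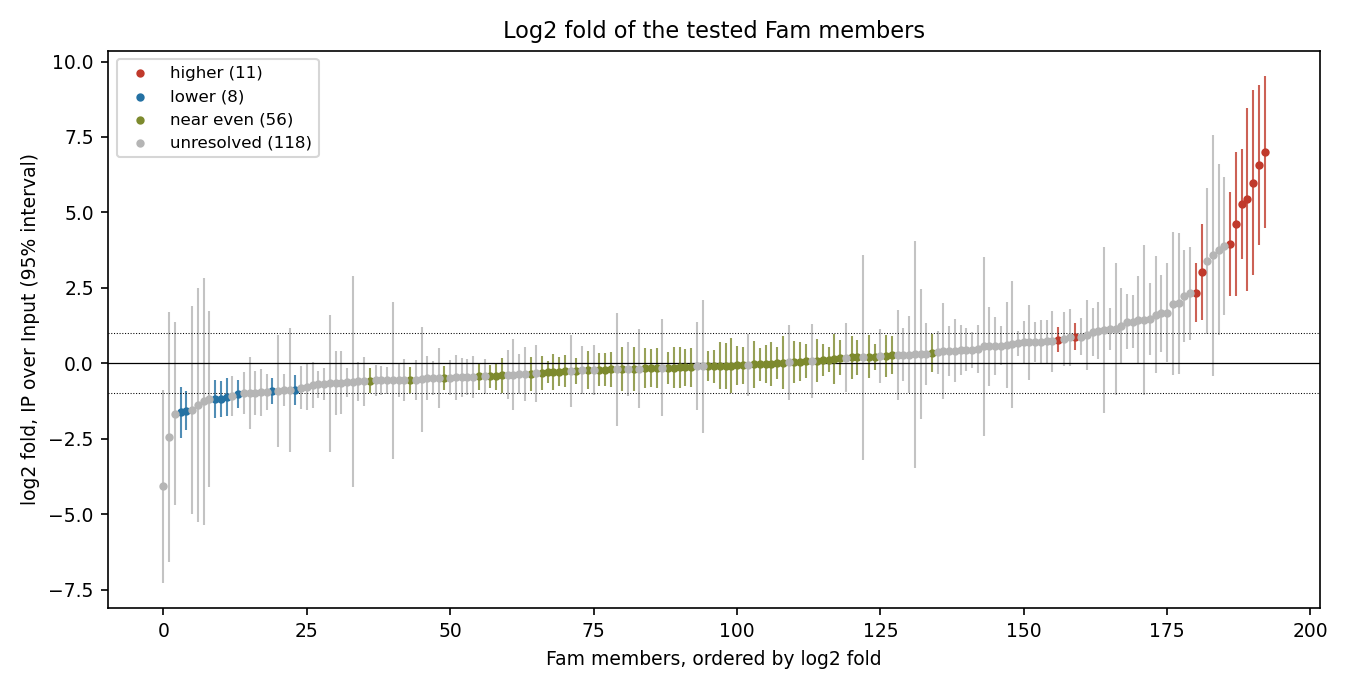
Log2 fold of IP over Input (y axis) for the 193 tested Fam members in order of the fold (x axis), with 95% intervals as vertical lines and dotted lines at -1 and 1. The 11 higher members reach a log2 fold of 7.01, while the 8 lower ones lie between -1.62 and -0.88.

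These counts depended on single libraries. Without IP 1, 40 members were higher and 25 lower of 197 tested (12.5% and 9.55% of all tested genes), and all 19 members called above were among them. Without IP 3, 6 were higher and 8 lower (1.91% and 1.98%). Without IP 4, Input 2, Input 3 or Input 4 edgeR called none in either direction, and without Input 1 it called only Fam216b. Few genes of any kind were called in these fits: 0.0556%, 0.0704%, 0.0235%, 0.0236% and 0.123% were higher, and 0.106%, 0.141%, 0.0941%, 0.112% and 0.176% lower, without IP 4, Input 2, Input 3, Input 4 and Input 1. With DESeq2 size factors 11 members were higher and 8 lower (3.66% and 2.27% of all tested genes), with total counts 11 and 6 (3.75% and 1.8%), and without a filter on low counts 7 and 7 (2.33% and 1.57%). In the fit over all 7 libraries an unadjusted p under 0.05 was reached by 28 members with a positive and 27 with a negative fold (13.3% and 9.4% of all tested genes). DESeq2 called 22 and 15 members (8.03% and 5.54% of all tested genes). Libraries of the same number shared a sequencing lane (lanes 4, 2 and 3 for numbers 1, 3 and 4, per the labels). With that number as a block 3 members were higher and none lower (0.553% and 0.19% of all tested genes). Input 2 has no IP of its number and adds nothing to the contrast in that fit, which also has fewer degrees of freedom. Why calls were lost with the block was not tested, and lane and the smaller fit cannot be told apart. Against the Input of the same lane all 11 higher members were higher in each of the 3 lanes, with median log2 ratios of 1.30, 4.89 and 4.77 in numbers 1, 3 and 4. The 8 lower members were lower in each lane, with medians of -1.31, -1.04 and -0.89. Since the calls rest on the same libraries, the lane values are a description and no further evidence.

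Fam216b, a gene of unknown function and a marker of ependymal cells, had the largest fitted fold of any member with all 7 libraries (ENSMUSG00000045655.9, chromosome 14, 78081021 to 78089007, minus strand; all positions are from GENCODE M21 on the assembly of mm10). It held 29.1, 456 and 326 CPM in IP 1, IP 3 and IP 4, and 0.147, 1.72, 3.63 and 2.92 CPM in Inputs 1 to 4. Every IP lay well above every Input, and IP 1 was an order of magnitude below the other IP libraries. The means were 271 ± 219 (SD, n = 3) and 2.11 ± 1.53 CPM (SD, n = 4), a fold of 7.01 ± 1.11 on the log2 scale (SE, edgeR adjusted p = 0.0147). With the lane as a block the call remained (edgeR adjusted p = 0.000674). The next member, Fam159a at 6.57 ± 1.20 (SE), does not differ from it beyond these errors. Fam159a was ahead of Fam216b with the lane block (7.12 against 7.04) and without Input 2 (7.02 against 6.92). Without Input 1 Fam166b was ahead, at 7.30 against 6.62 for Fam216b. Without a filter on low counts Fam216b had an edgeR adjusted p of 0.0531 with a log2 fold of 7.01. Its exons share 83 bases with Gm19301 on the other strand, and since the strand setting of the counting is not given, these reads cannot be assigned with certainty.

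Of 16 Fam symbols listed for roles in cilia, basal bodies or centrosomes 13 are in the tables and 11 were tested. This list, like the other role lists below, was drawn up with earlier results of these data known, so its counts are a description. Of the 11, 4 were higher and none lower, beside 3.64% and 2.16% of all tested genes, 1 was near even and 6 were unresolved. Their median log2 fold was 1.13, beside 0.06 over all tested genes, and their summed level was 340, 609 and 518 CPM in IP 1, IP 3 and IP 4 and 249 to 306 CPM in the Inputs. Without IP 1, 7 of them were higher (12.5% of all tested genes), and with the lane as a block 2 were (0.553%). The 4 higher ones were Fam183b, Fam166b, Fam92b and Fam179b.

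Fam183b, whose human counterpart is named as a protein of cilia and flagella (ENSMUSG00000049154.11, chromosome 11, 58792797 to 58801960, minus strand), held 11.1, 165 and 84.2 CPM in IP 1, IP 3 and IP 4 and 1.55, 1.27, 2.89 and 3.29 CPM in Inputs 1 to 4. All IP libraries were above all Inputs, and the log2 fold was 5.27 ± 0.80 (SE, edgeR adjusted p = 0.0147, and 0.0377 with the lane block). Per kilobase of exon, Fam183b had the highest IP level of the called members at 153 CPM per kilobase, ahead of Fam216b at 116, and both were under 4 in Input (3.97 and 0.906). The levels of these neighbours in rank do not differ beyond their spread over the IP libraries.

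Fam166b, a relative of the proteins inside the doublet microtubules of cilia (ENSMUSG00000042788.12, chromosome 4, 43427019 to 43429134, minus strand), held 2.70, 44.4 and 40.1 CPM in the IP libraries. In Inputs 1 to 4 it held 1.28, 0, 0.491 and 0.0737 CPM, so that only IP 1 came close to an Input. The log2 fold was 5.98 ± 1.36 (SE, edgeR adjusted p = 0.0385). The call was lost with the lane block (edgeR adjusted p = 0.195) and without a filter on low counts (0.109). It shares 70 exonic bases with Rusc2 on the other strand.

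Fam92b, named Cibar2 in RefSeq and encoding a membrane-bending BAR domain protein tied to ciliary basal bodies (ENSMUSG00000042269.15, chromosome 8, 120166397 to 120177466, minus strand), was expressed at a low level. It held 1.20, 9.96 and 8.74 CPM in IP 1, IP 3 and IP 4 against 0.0491, 0.715, 0.109 and 0.196 CPM in Inputs 1 to 4. Again IP 1 was the lowest IP library but above every Input. The log2 fold was 4.61 ± 1.07 (SE, edgeR adjusted p = 0.0372), and the call was lost with the lane block (0.0606).

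Fam179b, named Togaram1 and encoding a protein that acts on the microtubules of the cilium (ENSMUSG00000035614.11, chromosome 12, 64965804 to 65022573, plus strand), showed a smaller and steadier difference. It held 183, 132 and 154 CPM in the IP libraries and 88.3, 87.9, 68.6 and 95.7 CPM in the Inputs. Here IP 1 was the highest IP library, unlike in the 3 genes before it. The log2 fold was 0.88 ± 0.20 (SE, edgeR adjusted p = 0.0347, and 0.142 with the lane block). It shares 244 exonic bases with Gm48559 on the other strand.

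Of the cilium members that were not called, Fam179a came closest. It is named Togaram2 and is the relative of Fam179b. Fam179a held 3.36, 32.3 and 41.7 CPM in IP and 0.172, 1.12, 1.72 and 3.95 CPM in Input, so that IP 1 lay within the Input range. Its log2 fold of 3.89 ± 1.01 (SE) missed the threshold (edgeR adjusted p = 0.0574), and it passed with the lane block (0.0257) and without IP 1 (0.0029). Fam161b had all 3 IP libraries (21.4 to 33.0 CPM) above every Input (8.49 to 16.1 CPM) and a fold of 1.13 ± 0.32 on the log2 scale (SE, edgeR adjusted p = 0.065). Its relative Fam161a, a protein of basal bodies known from inherited retinal degeneration, held 4.81 CPM in IP 1, below all Inputs, and 50.3 and 37.6 CPM in IP 3 and IP 4, above them. Fam92a, Fam149b, Fam110a and Fam110b had log2 folds of -0.57, -0.47, 0.19 and -0.16. The first of these, Fam92a, is named Cibar1 and was at 67.3 to 100.3 CPM in IP and 93.9 to 143 CPM in Input.

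**Figure D2:**
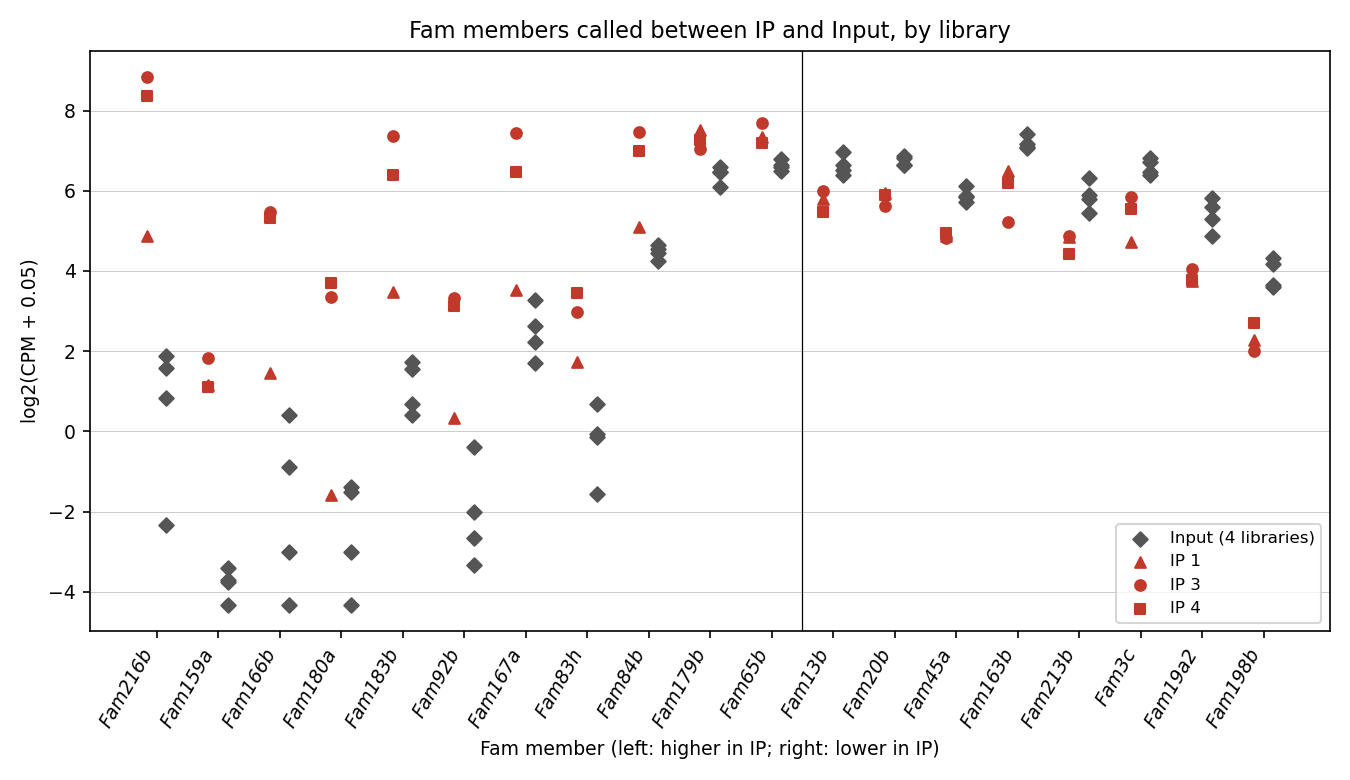
Level of the 19 called Fam members by library, as log2(CPM + 0.05) on the y axis, with the 11 higher members on the left and the 8 lower ones on the right of the line. IP 1 (triangles) lies below IP 3 and IP 4 in most of the higher members, with Fam180a the only called member where an IP overlaps the Inputs.

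The stretches before the start sites of Fam183b and Fam92b are shown for a shared motif, and that of Fam216b, the member with the largest fitted fold, beside them; all were chosen after they had been seen. RFX transcription factors, which act on cilium genes, bind the X-box, a pair of facing half-sites. RefSeq start sites on GRCm38.p6 were found for 191 members, and the 250 bases before each were searched on both strands for GTTNCC followed by GGNAAC with 0 to 3 bases between them, a form chosen after these stretches had been seen. The matches in Fam183b and Fam92b are therefore set by that choice and are not counted against other genes. The search also matched Fam110a and Fam166a, and it did not match the higher cilium members Fam166b and Fam179b; as background, 0.788% of all 27025 genes had a match. Capitals mark GTTGCC on either strand and the X-box, and each sequence runs 5′ to 3′ on the strand of its gene.
Fam183b, chr11:58801961-58802060, minus strand: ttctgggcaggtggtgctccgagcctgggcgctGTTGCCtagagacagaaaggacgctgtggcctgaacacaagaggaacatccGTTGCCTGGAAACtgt
Fam92b, chr8:120177470-120177569, minus strand: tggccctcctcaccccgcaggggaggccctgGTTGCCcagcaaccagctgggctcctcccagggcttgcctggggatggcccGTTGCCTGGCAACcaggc
Fam216b, chr14:78089008-78089107, minus strand: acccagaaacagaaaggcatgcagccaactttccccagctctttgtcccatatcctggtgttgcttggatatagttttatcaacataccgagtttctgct
Fam110a, chr2:151980239-151980298, minus strand: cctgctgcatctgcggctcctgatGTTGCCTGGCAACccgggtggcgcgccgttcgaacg
Fam166a, chr2:25218698-25218744, plus strand: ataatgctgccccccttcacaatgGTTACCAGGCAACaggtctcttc

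In Fam183b and Fam92b the X-box began 16 and 18 bases before the start site. The match was 55 bases before it in Fam110a, which was unresolved, and 23 bases before it in Fam166a, which did not pass the filter on low counts. GTTGCC alone was found in 30 of the 191 members and in 11.8% of all genes, and the X-box was absent from the 250 bases before Fam216b. A match describes these letters only and is not a measured binding site.

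The other higher members have no listed role in cilia. Fam167a, which encodes a protein of little known function (ENSMUSG00000035095.11, chromosome 14, 63436394 to 63465498, plus strand), held 11.5, 172 and 88.8 CPM in IP 1, IP 3 and IP 4 and 4.66, 6.10, 9.66 and 3.22 CPM in the Inputs. IP 1 was just above the highest Input while the other IP libraries were far above it. The log2 fold was 3.94 ± 0.76 (SE, edgeR adjusted p = 0.0249). The call was lost with the lane block (edgeR adjusted p = 0.102) and without a filter on low counts (0.0639).

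Fam84b, named Lratd2 (ENSMUSG00000072568.4, chromosome 15, 60818994 to 60853778, minus strand), held 34.4, 177 and 127 CPM in IP and 19.1, 23.5, 21.8 and 25.2 CPM in Input. Its Inputs were tight, and every IP lay above them (log2 fold 2.33 ± 0.44 SE, edgeR adjusted p = 0.0206, and 0.0946 with the lane block). Its exons share 2474 bases with the noncoding transcript 9930014A18Rik on the other strand, so its level is uncertain.

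Fam159a, named Shisal2a for its likeness to the shisa membrane proteins (ENSMUSG00000059816.5, chromosome 4, 108367777 to 108383349, minus strand), was almost absent from Input. It held 2.16, 3.50 and 2.09 CPM in the IP libraries and 0, 0.0447, 0.0273 and 0.0246 CPM in the Inputs. Here IP 1 was as high as IP 4, unlike in the higher members described above it except Fam179b. The Inputs held 4 reads in all against 374 in IP. Scaled by the total counts of the libraries, these sums give a ratio of 107. Its exact interval of 41.3 to 393 covers counting error only (edgeR adjusted p = 0.0183, and 0.114 with the lane block).

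Fam180a (ENSMUSG00000047420.8, chromosome 6, 35312668 to 35326141, minus strand) held 0.280, 10.2 and 12.9 CPM in IP against 0.0736, 0.335, 0.300 and 0 CPM in Input. It was the only called member whose libraries overlapped, since IP 1 lay below Inputs 2 and 3 (log2 fold 5.43 ± 1.37 SE, edgeR adjusted p = 0.0465, and 0.205 with the lane block). Fam83h, known from the formation of tooth enamel (ENSMUSG00000046761.12, chromosome 15, 76001093 to 76014336, minus strand), held 3.26, 7.82 and 10.8 CPM against 1.55, 0.291, 0.901 and 0.860 CPM. Its log2 fold was 3.02 ± 0.72 (SE, edgeR adjusted p = 0.0392, and 0.211 with the lane block).

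Fam65b, named Ripor2, restrains the small GTPase RhoA and is known from the hair bundles of the inner ear (ENSMUSG00000036006.19, chromosome 13, 24582189 to 24733816, plus strand). It held 162, 207 and 145 CPM in IP and 95.9, 90.6, 111 and 99.7 CPM in Input. The groups did not overlap, and the log2 fold was 0.78 ± 0.19 (SE, edgeR adjusted p = 0.0416). The call was lost with the lane block (edgeR adjusted p = 0.19) and without a filter on low counts (0.0507). Of 29 tested members listed for signalling, the cytoskeleton and trafficking, Fam65b and Fam83h were the 2 higher ones and none was lower, beside 3.64% and 2.16% of all tested genes, and the median log2 fold was 0.21 beside 0.06.

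The members that fell did so by less, with log2 folds from -1.62 to -0.88. In all 8 every IP lay below every Input, as in 10.4% of all tested genes. Picking members by their p-value already favours such a gap between the groups, so it is a description only. With the lane block none of the 8 lower members was called, with edgeR adjusted p from 0.0914 (Fam19a2) to 0.198 (Fam13b). Of 12 tested members listed as secreted or Golgi proteins 4 were lower and none higher, beside 2.16% and 3.64% of all tested genes. A negative fold was found in 11 of them and in 46.9% of all tested genes, and the medians were -0.91 and 0.06. Their summed level was 269, 310 and 315 CPM in IP 1, IP 3 and IP 4 and 474 to 598 CPM in the Inputs. Without IP 1, 5 of the 12 were lower (9.55% of all tested genes).

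Fam19a2, named Tafa2 and encoding a small secreted protein made by neurons (ENSMUSG00000044071.8, chromosome 10, 123263996 to 123741204, plus strand), held 13.4, 16.6 and 13.6 CPM in IP and 39.5, 48.4, 56.4 and 29.3 CPM in Input. The IP libraries were close to each other, and the log2 fold was -1.58 ± 0.29 (SE, edgeR adjusted p = 0.0187). Fam198b, named Gask1b and encoding a protein of the Golgi (ENSMUSG00000027955.16, chromosome 3, 79884533 to 79946280, plus strand), held 4.81, 3.94 and 6.51 CPM against 12.6, 17.9, 19.9 and 12.2 CPM. Its log2 fold of -1.62 ± 0.38 (SE, edgeR adjusted p = 0.038) was the lowest of the called members, and it shares 711 exonic bases with Gm36569 on the other strand.

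Fam3c, a secreted cytokine-like protein (ENSMUSG00000029672.16, chromosome 6, 22306520 to 22356243, minus strand), held 26.1, 56.9 and 46.6 CPM in IP and 88.1, 113, 106 and 84.7 CPM in Input. IP 1 was the lowest library here (log2 fold -1.18 ± 0.28 SE, edgeR adjusted p = 0.0389, and 0.0584 with total counts as the scaling). Fam20b, a Golgi kinase that acts on the sugar linker of proteoglycans (ENSMUSG00000033557.17, chromosome 1, 156678532 to 156719086, minus strand), held 61.5, 49.0 and 59.8 CPM against 112, 116, 99.9 and 99.7 CPM. Its log2 fold was -0.91 ± 0.19 (SE, edgeR adjusted p = 0.0269), and 400 of its exonic bases are shared with Gm19918 on the other strand.

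Of the 6 members listed as known from neurons none was higher and 2 were lower, beside 3.64% and 2.16% of all tested genes. The role lists can share members: Fam19a2 is also listed as a secreted or Golgi protein, so its call is counted in both lists. All 6 had a negative fold, as did 46.9% of all tested genes, and their median was -0.98 beside 0.06. The 10 neuron markers had a median log2 fold of -0.36; the difference between these medians was not tested. Fam163b, a membrane protein gene of neurons (ENSMUSG00000009216.7, chromosome 2, 27110380 to 27142491, minus strand), held 89.7, 37.4 and 73.3 CPM in IP and 137, 170, 143 and 135 CPM in Input. It was lowest in IP 3 and fell by 1.13 ± 0.29 (SE) on the log2 scale (edgeR adjusted p = 0.0468). Fam155a, a subunit of the sodium leak channel of neurons, had all IP libraries (55.4 to 73.7 CPM) below all Inputs (92.2 to 124 CPM) but did not pass (log2 fold -0.70 ± 0.21 SE, edgeR adjusted p = 0.076, and 0.0273 without IP 1).

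The remaining lower members were Fam213b, Fam45a and Fam13b. Fam213b, named Prxl2b and encoding a prostaglandin-forming enzyme of the thioredoxin-like fold, held 21.3 to 29.2 CPM in IP and 43.9 to 79.7 CPM in Input (a log2 difference of -1.17 ± 0.27 SE, edgeR adjusted p = 0.0347). Fam45a, named Dennd10 after its DENN domain, was the most even within IP at 28.4 to 30.5 CPM, against 53.1 to 69.4 CPM in Input (a log2 difference of -1.02 ± 0.21 SE, edgeR adjusted p = 0.0261). Fam13b, whose protein has a domain of RhoGAP type, held 44.2 to 63.4 CPM against 83.3 to 125 CPM, a fold of -0.88 ± 0.23 on the log2 scale (SE, edgeR adjusted p = 0.0493). The Fam13b call was lost with total counts as the scaling (edgeR adjusted p = 0.0678) and without a filter on low counts (0.0531). All 3 share exonic bases with a gene on the other strand: Fam213b 25 with Mmel1, Fam45a 368 with Gm15959 and Fam13b 631 with Pkd2l2.

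The members known from glia did not pass. Fam107a, an actin-binding protein gene prominent in astrocytes and radial glia, held 130, 365 and 345 CPM in IP and 411, 416, 377 and 440 CPM in Input. All IP libraries were below all Inputs, IP 1 far below (log2 fold -0.55 ± 0.31 SE, edgeR adjusted p = 0.329). Fam126a, which encodes hyccin and is linked to myelination, was at 0.71 ± 0.33 (SE) in log2 fold (edgeR adjusted p = 0.235, and 0.00802 without IP 1). Fam181b was unresolved as well, and the 3 members had a median of 0.42. The 9 astrocyte markers had a median log2 fold of 0.58 and the 9 oligodendrocyte markers one of -0.74.

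The near-even members were more abundant than the unresolved ones, which their definition favours, since a narrow interval needs enough reads. The mean level of the near-even members over all libraries had a median of 47.9 CPM (13.8 to 355 CPM), against 12.5 CPM for the unresolved ones. The most abundant of them was Fam168a, at 283, 312 and 344 CPM in IP and 368, 415, 381 and 378 CPM in Input (a log2 difference of -0.30, interval -0.66 to 0.06). Fam168b (-0.28, interval -0.76 to 0.20), Fam49a (-0.43, interval -0.82 to -0.04), Fam126b (-0.25, interval -0.68 to 0.18) and Fam53c (0.12, interval -0.29 to 0.54) followed. Fam49a, named Cyria, encodes a protein that binds the GTPase Rac1, and Fam126b a relative of hyccin. Near even does not mean equal in every library: in Fam168a and Fam49a all IP libraries lay below all Inputs. Of the 56 near-even members 6 were called when IP 1 was left out, 2 higher and 4 lower. That fit called 12.5% of all tested genes higher and 9.55% lower, and the share among all near-even genes was not taken.

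The lists for membrane and organelle proteins and for RNA and chromatin held no called member. Of all tested genes 3.64% were higher, 2.16% lower and 25.9% near even, with a median log2 fold of 0.06. Of 19 tested membrane and organelle members 7 were near even, and the median log2 fold was -0.21. Fam134a, named Retreg2 and of a family of endoplasmic reticulum receptors for autophagy, had IP libraries at 44.4 to 58.0 CPM and Inputs at 64.4 to 91.4 CPM (a log2 difference of -0.64 ± 0.22 SE, edgeR adjusted p = 0.121). Of 16 RNA and chromatin members 3 were near even, and the median was 0.26. Fam120a, an RNA-binding protein gene, held 219 to 321 CPM in IP and 152 to 194 CPM in Input (a log2 difference of 0.66 ± 0.19 SE, edgeR adjusted p = 0.0715), and Fam50a, a gene tied to splicing, 10.8 to 21.2 against 3.70 to 6.83 CPM (1.38 ± 0.41 SE, 0.0792). Without IP 1 these passed, with edgeR adjusted p of 0.0302 and 0.019.

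Among members that were not called, the largest folds with groups that did not overlap were in genes of very low level. Fam71d held 0.0200 to 0.110 CPM in IP and 0.196 to 1.68 CPM in Input (a log2 difference of -4.08 ± 1.43 SE, edgeR adjusted p = 0.125). Fam60a held 0.260 to 2.31 CPM against 0.0273 to 0.221 CPM (3.76 ± 1.28 SE, 0.116), and Fam109b 1.30 to 1.35 CPM against 0.0491 to 0.491 CPM (1.98 ± 1.07 SE, 0.309). Without IP 1 only the second of these, Fam60a, passed (edgeR adjusted p = 0.0368).

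The 232 members fall into 114 numbers, and 69 numbers had at least 2 tested members. No number had called members in both directions. For each called member the ratio of its count to that of each tested member of the same number was taken within each library, which gave 19 pairs. Each pair holds a member called from these libraries, which by itself moves the ratio, so the ratios are given as a description with no test.

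The log2 ratio of Fam216b to Fam216a was -0.27, 2.28 and 1.94 in IP and between -8.32 and -3.83 in Input, and Fam216a itself differed by 0.36 ± 0.32 (SE) on the log2 scale (edgeR adjusted p = 0.559). The ratio of Fam84b to Fam84a was -0.41 to 2.07 in IP and -2.27 to -1.09 in Input, and Fam84a had a negative fold that did not pass (-0.95 ± 0.27 SE, edgeR adjusted p = 0.0699). The ratio of Fam92b to Fam92a was -5.85 to -2.94 in IP and -10.51 to -7.33 in Input. In these pairs the IP and Input libraries did not overlap. The same was true of Fam13b with Fam13a, Fam159a with Fam159b and Fam198b with Fam198a. It was also true of Fam3c with Fam3a, Fam19a2 with Fam19a5 and Fam20b with Fam20c. In all other pairs the libraries overlapped.

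The log2 ratio of Fam13b to Fam13a was 1.36, -0.35 and -0.68 in IP and 1.83 to 2.78 in Input. Fam13a had a positive fold that did not pass (1.38 ± 0.39 SE, edgeR adjusted p = 0.0671). The log2 ratio of Fam163b to Fam163a averaged 2.06 in IP and 2.16 in Input with overlapping libraries, and Fam163a was at -1.09 ± 0.29 (SE) in log2 fold (edgeR adjusted p = 0.0574). For Fam65b and Fam65a the ratios overlapped as well.

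**Figure D3:**
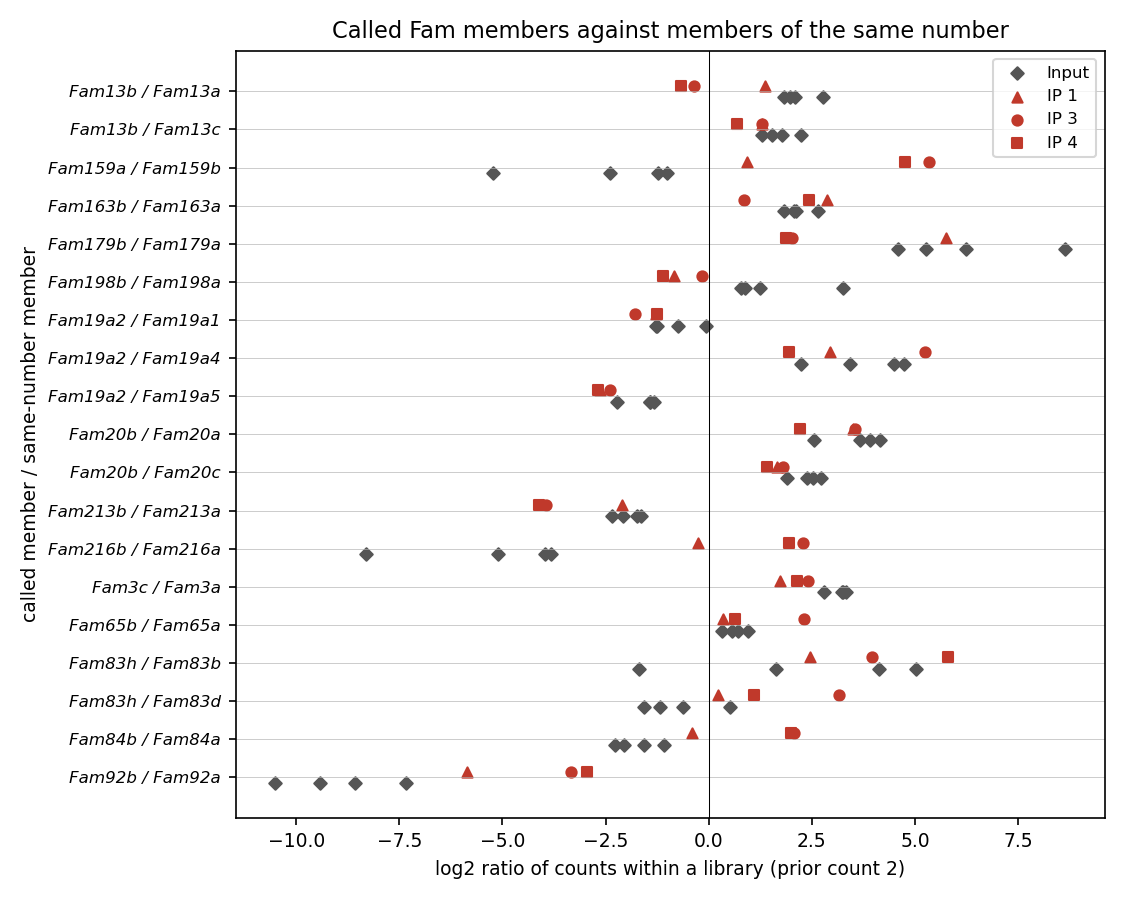
Log2 ratio of the counts of a called Fam member to another member of the same number within each library (x axis, prior count 2), for 19 pairs (y axis). Red symbols stand for the 3 IP libraries and grey diamonds for the 4 Inputs; Fam216b with Fam216a, Fam159a with Fam159b and Fam92b with Fam92a are the widest apart.

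IP 1 departed from the other IP libraries in many members. With each IP library expressed as a log2 ratio to the mean Input, IP 1 was more than 1 below the mean of IP 3 and IP 4 in 53 of the 193 members and more than 1 above it in 22. The share of all tested genes beyond these limits was not taken, so these counts cannot be called a trait of the members. Fam107b, the relative of Fam107a, was chosen after its values were seen. It held 22.0 CPM in IP 1, below all Inputs (32.9 to 46.4 CPM), and 210 and 135 CPM in IP 3 and IP 4, above them; without IP 1 its log2 fold was 2.15 (edgeR adjusted p = 3.98e-06). The opposite case was Fam193b, also chosen after its values were seen. It held 114 CPM in IP 1, above all Inputs, and 4.01 and 5.99 CPM in IP 3 and IP 4, below them.

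Fam193b thus had Inputs of 39.9, 36.3, 32.7 and 24.9 CPM in between its IP libraries. Its log2 fold was 0.30 ± 0.95 (SE, edgeR adjusted p = 0.892) with all libraries, -1.34 with the lane block (0.525) and -2.74 without IP 1 (edgeR adjusted p = 5.46e-05). Of the members that were unresolved with all libraries, 26 were higher and 13 lower without IP 1. In that fit 12.5% of all tested genes were higher and 9.55% lower, and the share among all unresolved genes was not taken. Among these members, chosen after their values were seen, were Fam47e, Fam117a, Fam78a, Fam151b, Fam13a and Fam149a, with log2 folds from 1.49 to 3.83 in that fit.

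**Figure D4:**
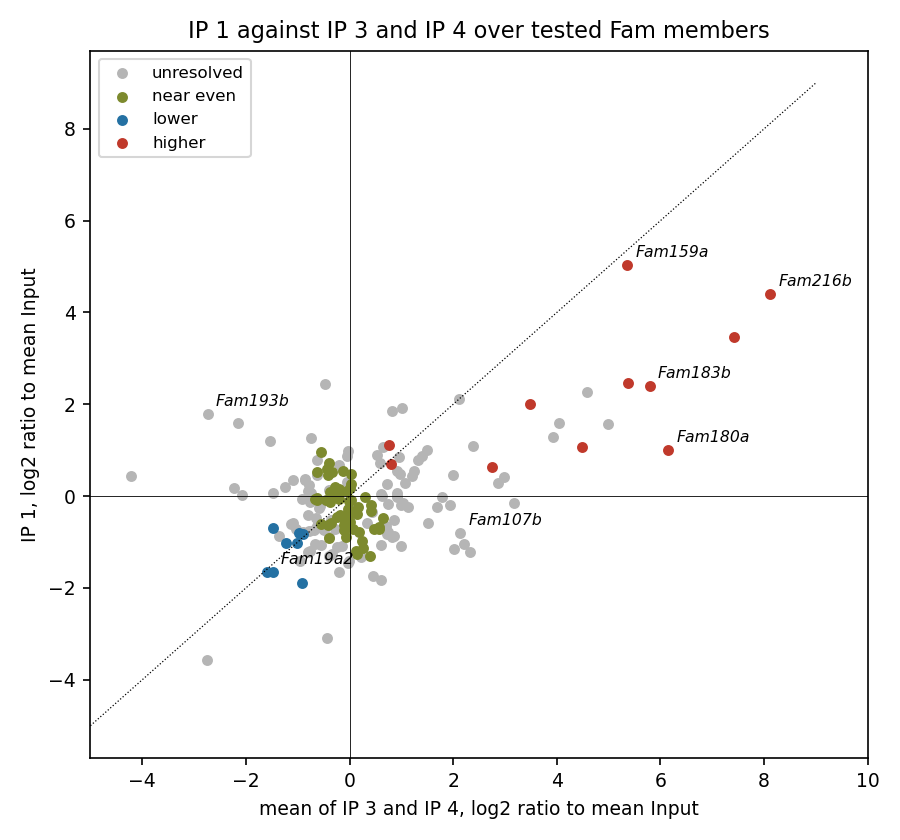
Log2 ratio to the mean Input of IP 1 (y axis) against the mean of IP 3 and IP 4 (x axis) for the 193 tested Fam members, coloured by their call with all libraries; the dotted line marks equal values. The higher members other than Fam179b lie below the line, and Fam193b and Fam107b lie in the quadrants where IP 1 and the other IP libraries point in opposite directions.

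The 39 members that were not tested did not pass the filter on low counts. Their mean over all libraries was at most 0.594 CPM, and 8 of them had no read in any library. Among them are Fam166a, Fam110c and Fam181a. Fam181a, chosen after its values were seen, held 0.220, 0.727 and 2.89 CPM in IP 1, IP 3 and IP 4 and 0.0245, 0.224, 0.0546 and 0.0246 CPM in the Inputs. IP 4 was the highest library with 148 reads, and IP 1 lay just below Input 2. Without IP 1 the gene passed the filter and was higher in IP (log2 fold 4.40, edgeR adjusted p = 0.0424).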

How the data were processed

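The authors deposited whole-number counts of reads per gene symbol, 1 table per library, without normalisation. STAR 2.0.0e, HTSeq and the build mm10 are named per the submitters' processing notes; for settings, annotation and strand the sources used here give nothing. Lines for reads assigned to no gene (no feature, ambiguous or not unique) made up 40.1% to 52.1% per library and stayed out. Genes were kept with filterByExpr (minimum count 10, minimum total 15) and normalised by TMM. The IP against Input test was that of edgeR 4.0.16 (R 4.3.3; glmQLFit with robust moderation, glmQLFTest), with group as the only term and Benjamini-Hochberg adjustment over all 17375 genes. The SE is the log2 fold over the root of the F statistic, and the interval uses its moderated degrees of freedom. CPM are on the TMM scale, except that the floor and the ratio of summed reads in Fam159a use total counts. Ratios to Input use a prior count of 2. The fit was tested on simulated counts with the same dispersion for every gene. No simulated library stood apart as IP 1 does, so that case is not covered.

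The members and role lists were chosen with earlier results of these data known. Named members were Fam216b, up to 10 called members in each direction by fold, all tested cilium members, the 5 most abundant near-even ones, 5 separated but not called, and the 2 of each other role list with the smallest p; others named share a number or list with these, or are said to be chosen afterwards. Of the 232 symbols 231 matched 1 gene of GENCODE M21 by symbol or RefSeq synonym, and 88 share exonic bases with another gene. The replicate number was treated as pairing libraries because the labels put both on 1 lane with neighbouring library numbers. Deviations of same-numbered libraries correlated across genes at 0.032, 0.043 and 0.026, and those of the other IP and Input pairs at -0.039 to 0.012. Alternatives were DESeq2 1.42.0, its size factors, total counts, no filter, the replicate block and leaving out each library.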

Additional observations from a re-analysis of the deposited data

Results flagged for a closer look

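Among the 4 Input libraries of the 48 named members, 1 value stood apart from the others by Dixon's criterion, where chance gives about 1 in 20 groups. Fam181a held 0.224 CPM in Input 2 against at most 0.0546 CPM in the others. With all 7 libraries this gene did not pass the filter on low counts, and without IP 1 it was tested and higher in IP (log2 fold 4.40, edgeR adjusted p = 0.0424).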

How the results depend on the processing

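The counts of higher, lower and near-even members were 11, 8 and 56. They were 11, 8 and 56 with DESeq2 size factors and 11, 6 and 57 with total counts. Without a low-count filter they were 7, 7 and 54, with DESeq2 22, 15 and 56, and with the replicate block 3, 0 and 31. Leaving out 1 library gave 0 to 40 higher, 0 to 25 lower and 39 to 57 near-even members. Of the 19 called members, the 19 calls held with DESeq2, with its size factors and without IP 1, 17 with total counts, 14 without a filter, 11 without IP 3, 2 with the replicate block (Fam216b and Fam183b), 1 without Input 1, and 0 without IP 4 or any other Input. The cause was not tested. Fits with fewer libraries have fewer degrees of freedom, the fit without IP 1 included, which called 40 members higher and 25 lower. The log2 fold of Fam193b turned from 0.30 to -1.34 with the replicate block, and leaving out 1 library moved it between -2.74 (without IP 1) and 0.82. That of Fam110a, 0.19, moved between -0.066 (without Input 3) and 0.51, with -0.044 without IP 3. In Fam159a, with 4 Input reads in all, a few reads set the fold. The log2 fold of Fam92b moved from 4.61 to 5.77 without Input 2.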
